A study of Sus scrofa with 24 samples.

Results

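In the hippocampus of piglets, 9 genes of central nervous system myelin were followed, of which MBP, MOBP, MOG, MAG, CNP, CLDN11 and ERMN encode its proteins and UGT8 and FA2H enzymes that make its characteristic lipids. They were chosen by symbol, with earlier results of these data known. All 9 were found among the 38882 genes listed in each library and passed the filter on low counts. The study crossed size at birth with formula, to ask how a formula of hydrolyzed fat affects piglets born small for gestational age (SGA). Sequencing libraries were made from polyA RNA of 24 hippocampi collected on day 14. SGA piglets were compared with appropriate for gestational age (AGA) piglets, the first defined by a low birth weight, on either a control formula (CON) or a hydrolyzed fat formula (HF), with 6 piglets in each of the 4 groups. All piglets were a PIC Camborough (dam) by PIC 359 (sire) cross, were born naturally at full term and received colostrum before being placed on formula. Small size was thus a natural birth weight class and not an induced restriction. The labels pair each SGA piglet with a sex-matched AGA littermate on the same formula, which gives 12 litters, 6 on each formula, and place 6 litters in cohort 1 and 6 in cohort 2, where a cohort is a set of litters brought in together. Of the 6 litters of each cohort, 4 in cohort 1 and 2 in cohort 2 were male.

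Myelin is the many-layered membrane that oligodendrocytes wrap around axons to speed conduction, and in the hippocampus, as in the rest of the forebrain, much of it is laid down after birth. Its membrane is unusually rich in galactolipids, and a small set of proteins compacts the layers, seals them and attaches them to the axon. A mature oligodendrocyte transcribes these genes together, so their transcripts are commonly used as markers of mature, myelinating oligodendrocytes. In bulk tissue such as this, fewer oligodendrocytes and less myelin RNA per oligodendrocyte cannot be told apart.

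Total counts on listed genes ranged from 6017336 to 9284355 per library, with a median of 7346072. Levels are given as CPM, the counts of a gene scaled to a library of fixed size with TMM factors. Astrocytic GFAP (6733 to 11044 CPM), neuronal NEUROD2 (335 to 578) and the dentate gyrus factor PROX1 (37.1 to 64.3) were present in all libraries. Of the other listed markers of hippocampal excitatory neurons, BCL11B had 38.1 to 72.9 CPM and WFS1 1.68 to 6.80. ZBTB20, from the same list, had 0 to 0.165 CPM with a median of 0, and NEUROD6 had no match. In the labels the 24 libraries are 24 separate piglets. A pair of AGA libraries stood apart from the other 22 in a way that touches these genes. The summed CPM of 18 neuronal transcripts was 14205 in AGA CON replicate 2 (litter 4) and 17168 in AGA HF replicate 4 (litter 7), and at least 21190 in each of the others. Their summed level of the 9 myelin genes, 20289 and 20760 CPM, ranked 6 and 3 among the 24 piglets. The same 2 libraries held the 2 highest summed levels of astrocyte markers (16296 and 16321 CPM), microglial markers (280 and 246), endothelial markers (302 and 256) and Schwann cell markers (24.2 and 27.8), and of the genes of newly formed oligodendrocytes and progenitors (2741 and 2838). Results on size are therefore also given without those 2 litters.

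In genome build Sscrofa10.2, which the deposited files use, the genes lay on 6 chromosomes and 1 unplaced scaffold, and reads were counted over the exons of each. MBP (Entrez 414286), the cytoplasmic protein that holds the inner membrane faces together, lay on the minus strand of an unplaced scaffold from 133086 to 168104. MOBP (100152154), a second cytoplasmic protein of compact myelin, lay on chromosome 13 from 26450254 to 26497554. MOG (100141421), an immunoglobulin-like protein of the outermost myelin surface, lay on chromosome 7 from 25181816 to 25192432. MAG (100516913), the adhesion protein of the innermost layer that faces the axon, lay on chromosome 6 from 40214125 to 40221021.

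CNP (100511587), a cyclic nucleotide phosphodiesterase of the uncompacted cytoplasmic channels, lay on chromosome 12 from 21048293 to 21055830. CLDN11 (100302016), the claudin of the tight junctions between myelin layers, lay on chromosome 13 from 117956912 to 117970337. ERMN (100627261), ermin, a cytoskeletal protein of late-stage oligodendrocytes, lay on chromosome 15 from 71280941 to 71285638. The 2 lipid enzymes were UGT8 (100511825), which transfers galactose to ceramide, on chromosome 8 from 115965708 to 115974792, and FA2H (100523966), which hydroxylates the fatty acids of those galactolipids, on chromosome 6 from 12797906 to 12853541.

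The transcripts of the 9 genes together made up 1.05% to 2.35% of the TMM-scaled size of a library. Divided by the exon length, MBP had the highest level, with a mean of 3549 CPM per kb ± 810 (SD, n = 24), followed by MOBP at 1201 ± 233 and CNP at 787 ± 214. CLDN11 followed at 534 ± 131 CPM per kb and MAG at 444 ± 100, and the lipid enzymes were lower, UGT8 at 182 ± 35.0 and FA2H at 122 ± 24.9. This order from MBP to FA2H held for each neighbouring pair of genes in all 24 piglets, except that CLDN11 was above MAG in 23 of 24. MOG, at 12.8 ± 7.66 CPM per kb, and ERMN, at 2.30 ± 0.854, were far below the rest. MOG was counted over 728 exon bases of this build, ERMN over 1134 and CLDN11 over 716. The part of RNA quality and of the gene models in these levels was not tested. MOG was above ERMN in all but 1 piglet. The lowest counts in a library were 14 for MOG and 5 for ERMN, so the lowest values of these 2 genes carry large counting error, whereas FA2H, the next lowest, had at least 1386 counts.

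The first question was whether the myelin genes differed with size at birth. Each of the 9 genes had a lower mean CPM in SGA than in AGA piglets. CNP ranged from 1507 to 2851 CPM in the 12 AGA piglets, with a median of 2201, and from 1239 to 2434 in the 12 SGA piglets, with a median of 1434. Its ranges overlapped, but the median of the SGA piglets was below the lowest AGA piglet.

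MBP ranged from 4424 to 10193 CPM in AGA piglets, with a median of 7386, and from 3758 to 8590 in SGA piglets, with a median of 5903. On CON the 2 sizes did not overlap for MBP, and the share of all genes that separated in this way is not reported here. AGA CON piglets lay between 7158 and 8944 CPM with a median of 7386, and SGA CON piglets between 4392 and 6332 with a median of 5903. On HF they overlapped widely, at 4424 to 10193 CPM with a median of 6863 in AGA and at 3758 to 8590 with a median of 5856 in SGA.

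MOBP, the other abundant structural gene, had medians of 6526 CPM in AGA CON (5801 to 8481), 7310 in AGA HF (5046 to 8538), 5280 in SGA CON (4284 to 6095) and 6369 in SGA HF (4316 to 7471). UGT8, the galactolipid enzyme, had medians of 607 CPM in AGA CON (462 to 697), 610 in AGA HF (451 to 762), 437 in SGA CON (395 to 523) and 503 in SGA HF (346 to 589). For both genes SGA CON was the lowest group by its median, and its range overlapped that of AGA CON.

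FA2H, which works beside UGT8, had medians of 361 CPM in AGA CON (257 to 379), 331 in AGA HF (210 to 376), 244 in SGA CON (214 to 346) and 315 in SGA HF (222 to 399). The tight junction gene CLDN11 had medians of 439 CPM in AGA CON (335 to 566), 363 in AGA HF (270 to 515), 326 in SGA CON (281 to 401) and 402 in SGA HF (212 to 477). Both had their lowest group median in SGA CON, and all 4 groups overlapped for each of them. MAG, the axon-facing adhesion gene, had medians of 750 CPM in AGA CON (527 to 1102), 724 in AGA HF (522 to 914), 613 in SGA CON (559 to 685) and 623 in SGA HF (393 to 848), again with overlap between all groups.

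The 2 scarce genes were the most variable. MOG had medians of 15.1 CPM in AGA CON (3.61 to 18.3), 10.0 in AGA HF (2.24 to 19.1), 7.34 in SGA CON (3.57 to 9.37) and 5.73 in SGA HF (2.71 to 15.9). ERMN had medians of 2.72 CPM in AGA CON (1.55 to 4.53), 3.50 in AGA HF (1.94 to 4.20), 1.81 in SGA CON (1.36 to 2.31) and 2.32 in SGA HF (0.694 to 3.99). The SDs of log2 CPM over the 24 piglets were 0.93 for MOG and 0.54 for ERMN, against 0.28 to 0.39 for the other 7 genes.

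**Figure D1:**
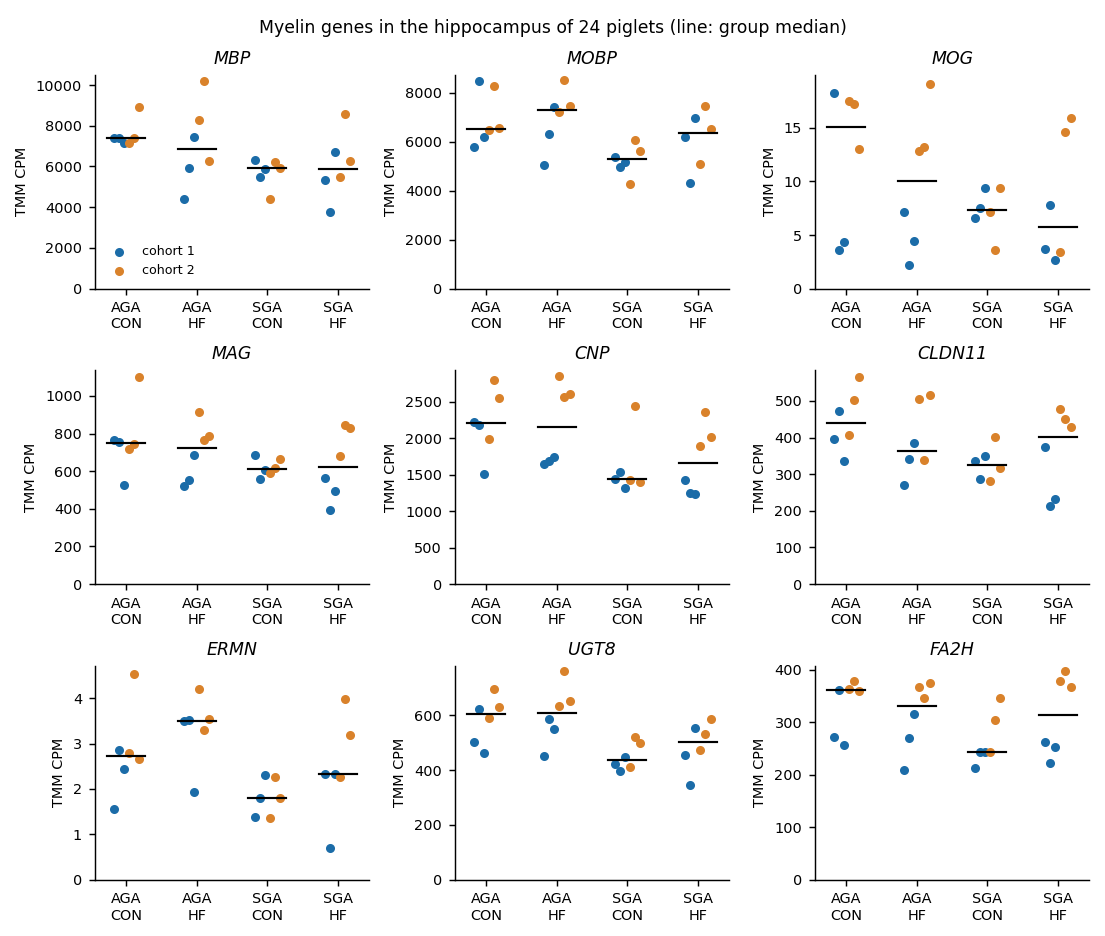
CPM of each myelin gene in each of the 24 piglets, with the 4 groups on the horizontal axis, points coloured by cohort and a line at the group median. For MBP the 6 SGA CON piglets, at 4392 to 6332 CPM, sit below the 6 AGA CON piglets, at 7158 to 8944, and the other groups overlap. The share of all genes that separated in this way is not reported here.

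Tested in edgeR's quasi-likelihood model with group, sex and 5 surrogate variables (sources of variation estimated from the expression values themselves), all 9 genes had a lower estimate in SGA and 0 of 9 passed the study's FDR p of 0.4 for the main effect of size, where 0.478% of the 16326 genes tested did. DESeq2 and limma voom with the same terms also called 0. An unadjusted p under 0.05 was reached by 3 of the 9, all lower, where 10.6% of all genes reached it and 4.95% did so with a lower level. DESeq2 had 2 such genes and voom 3, and the share of all genes that reached it in those fits is not reported here. The 3 in edgeR were CNP, with a log2 fold change of -0.27 ± 0.11 (SE; edgeR adjusted p = 0.648), UGT8 with -0.21 ± 0.079 (adjusted p = 0.626) and CLDN11 with -0.22 ± 0.11 (adjusted p = 0.725). The median log2 fold change of the 9 genes was -0.21, and that of all genes -0.0023. The 5 surrogate variables together held 59.0% of the variance of the genes' mean log2 CPM over piglets, between 33.9% for MOG and 64.2% for FA2H, against a median of 43.7% over all genes.

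The design also allowed each SGA piglet to be set against its own littermate, which removes what a litter shares, including its cohort, sex and formula. CNP was lower in the SGA piglet in 12 of 12 litters, by 0.12 to 0.86 on the log2 scale. MBP and MOBP were lower in 11 of 12 litters, and litter 1, on HF, was the exception for both. UGT8 and ERMN were lower in 10 of 12, CLDN11 and FA2H in 9, and MOG and MAG in 8. The mean of the 9 genes was lower in the SGA littermate in 10 of 12 litters, with a mean difference of -0.33 ± 0.25 (SD, n = 12) and a range from -0.65 to 0.044. In litters 2, 8, 10 and 12, all on CON, each of the 9 genes was lower in the SGA piglet, and litter 1 had the fewest, 3 of 9.

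**Figure D2:**
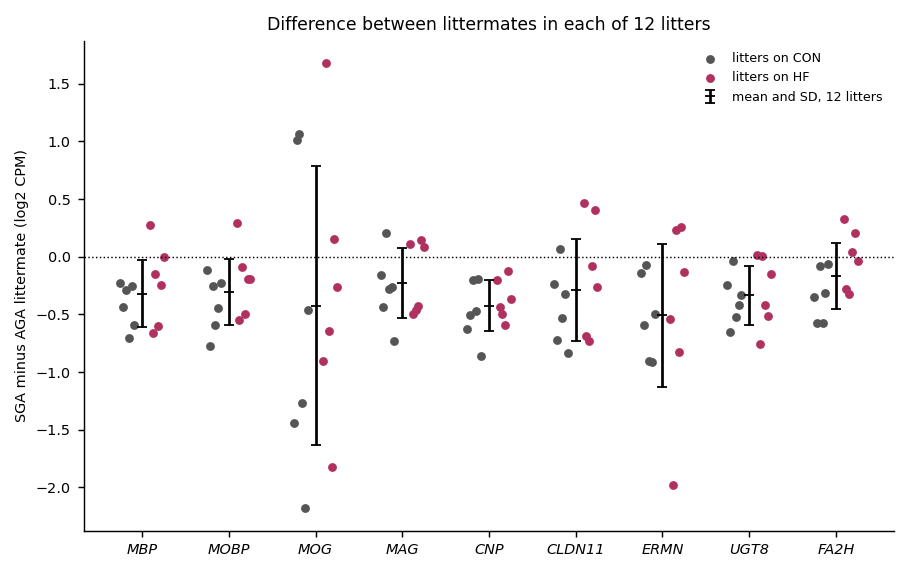
Difference in log2 CPM between the SGA and the AGA littermate for each gene, 1 point per litter, grey for litters on CON and crimson for litters on HF, with the mean and SD over 12 litters as a black bar. All 12 points of CNP lie below 0, between -0.86 and -0.12, and the points of MOG spread most widely, from -2.18 to 1.68.

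When the model held the 12 litters as a block instead, and no surrogate variables, with the FDR over 4 contrasts, 4 of the 9 genes passed an FDR p of 0.4 for size, all lower in SGA, where 2.57% of all genes passed and 1.52% passed with a lower level. CNP had a log2 fold change of -0.42 ± 0.063 (SE; adjusted p = 0.0366) and was 1 of 4 genes in the whole table (0.0245%) with an FDR p under 0.05. UGT8 had -0.34 ± 0.070 (adjusted p = 0.127), MBP -0.32 ± 0.075 (adjusted p = 0.182) and MOBP -0.30 ± 0.073 (adjusted p = 0.213). The structural genes MAG, at -0.23 ± 0.079, CLDN11, at -0.29 ± 0.10, ERMN, at -0.53 ± 0.20, and MOG, at -0.49 ± 0.29, had FDR p between 0.470 and 0.701. FA2H had -0.17 ± 0.065 (adjusted p = 0.513). The median of the 9 genes was -0.32, and that of all genes 0.0028.

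**Figure D3:**
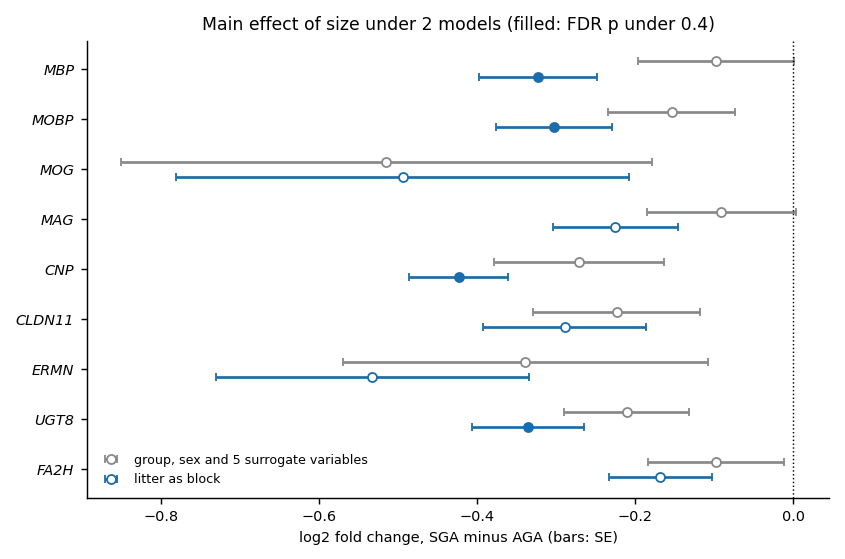
Log2 fold change for size with its SE for each gene, in grey from the model with 5 surrogate variables and in blue from the model with the litter as a block, with filled points where the FDR p was under 0.4. All 18 estimates lie below 0, and the 4 filled points are the blocked estimates of MBP, MOBP, CNP and UGT8.

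The number of genes called moved with the litters that entered. Without litters 4 and 7, whose AGA piglets had the least neuronal RNA, the blocked model called 1 of the 9 genes, where 0.221% of all genes were called. CNP was that gene (log2 fold change -0.40, edgeR adjusted p = 0.291). All 9 genes remained lower, with a median of -0.28, and the FDR p became 0.570 for MBP, 0.629 for MOBP and 0.519 for UGT8. When 1 litter was left out at a time, CNP, UGT8 and MBP were called in 12 of 12 fits, and MOBP in 10, with an FDR p of 0.417 without litter 4 and 0.401 without litter 7. The model with surrogate variables called 2 or 3 of the 9 genes when litter 3, 4, 5 or 12 was left out, UGT8 and MOBP in each of those 4 fits, and 1 without both litters 4 and 7 (UGT8, -0.27). For the fits that left out 1 litter the share of all genes called is not reported here, so their counts have no background beside them. Within cohort 1 alone the block called 0 of 9 and 0 of all genes, with CNP at -0.42 and MOG higher by 0.061. Within cohort 2 alone it called UGT8 (-0.39, adjusted p = 0.320), where 0.208% of genes passed, with CNP at -0.44.

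Markers of other cells were set beside the size comparison, as the range of their summed CPM in 12 AGA and in 12 SGA piglets. Astrocyte markers (8 of 8 measured) summed to 11339 to 16321 CPM in AGA and 11524 to 13735 in SGA. Under the block 6 of 8 were lower in SGA, and S100B was called (-0.17 ± 0.053, edgeR adjusted p = 0.383). Over all genes the block called 2.57%, and 1.52% with a lower level. Microglial markers (8 of 8) summed to 119 to 280 and 100.1 to 211 CPM, with 7 of 8 lower and 0 called in edgeR. Schwann cell markers (4 of 5) had median sums of 18.8 CPM in AGA and 17.3 in SGA. Of these, CDH19 was called lower under the block (-0.39 ± 0.12, edgeR adjusted p = 0.387). Choroid plexus markers (2 of 5) summed to 1.81 to 43.6 and 5.63 to 147 CPM, both higher in SGA and neither called. Endothelial (5 of 6) and meningeal markers (5 of 5) each had 3 of 5 lower and 0 called in edgeR. Without litters 4 and 7, 0 markers of these cells were called in edgeR, where 0.221% of all genes were, and 4 of 8 microglial and 2 of 4 Schwann cell markers were lower. The part of these cells in the size difference was not tested.

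The second question was whether the formula mattered. For the main effect of diet, 0 of 9 genes passed (edgeR, 0.159% of all genes), and 0 passed in DESeq2 or limma voom. Each formula was given to 6 litters, and these fits held no litter term. Littermates on the same formula were thus treated as independent piglets, although diet was a property of the litter. In 7 of 9 genes the estimate was lower on HF, with a median of -0.036 against 0.0020 for all genes. MBP alone had an unadjusted p under 0.05, with a log2 fold change of -0.22 ± 0.10 (SE; adjusted p = 0.713), where 7.09% of all genes did. Its medians were 6745 CPM in the 12 piglets on CON (4392 to 8944) and 6258 in the 12 on HF (3758 to 10193), so the HF piglets included both the lowest and the highest. Signs of the diet estimates depended on the model. With sex as the only other term, 4 of 9 genes were lower on HF, with a median of 0.036. Without litters 4 and 7, 1 of 9 was lower, MBP at -0.066, and the median was 0.15.

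Markers of other cells were also set beside the diet comparison. Of 5 meningeal markers 4 were higher on HF, with a median of 0.29, 3 of them with an unadjusted p under 0.05, and 1 was called, PRG4 (adjusted p = 0.146), which had 0 to 4.20 CPM with a median of 0.058. Their summed CPM was 49.9 to 97.1 on CON and 52.3 to 116 on HF. Choroid plexus markers were lower on HF in 2 of 2 (median -0.71), and summed to 5.18 to 147 CPM on CON and 1.81 to 26.3 on HF. Lower estimates on HF were also found in 6 of 8 astrocyte (median -0.051), 6 of 8 microglial (-0.081), 4 of 5 endothelial (-0.094) and 4 of 4 Schwann cell markers (-0.096). In these 5 lists 0 genes were called in edgeR, and 2 had an unadjusted p under 0.05. The part of these cells in the diet estimates was not tested.

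Split by size, 0 of 9 genes passed between HF and CON, both in AGA (edgeR, 0.0674% of all genes passed) and in SGA (0.0919%), and 0 passed in DESeq2 or voom. In AGA piglets MBP was the single gene with an unadjusted p under 0.05, at -0.33 ± 0.14 (adjusted p = 0.675), and the median of the 9 genes was -0.058. In AGA 6.09% of all genes reached that level. In SGA 5.16% of all genes and 0 of the 9 did, and the median was -0.013, where FA2H stood at 0.13 ± 0.12 and MAG at -0.14 ± 0.13.

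Split by formula, 9 of 9 genes were lower in SGA than AGA on CON and 7 of 9 on HF, and 0 were called on either (edgeR with surrogate variables, where 0.129% and 0.288% of genes passed, and likewise in DESeq2 and voom). An unadjusted p under 0.05 was reached by MOBP and UGT8 on CON (6.59% of all genes) and by CNP on HF (8.02%). With the litter as a block, 5 genes were called on CON, where 1.26% of genes passed and 0.876% with a lower level, namely CNP (-0.48 ± 0.089), MBP (-0.42 ± 0.11), MOBP (-0.40 ± 0.10), UGT8 (-0.37 ± 0.10) and FA2H (-0.33 ± 0.092). On HF 1 gene was called, CNP at -0.37 ± 0.088 (adjusted p = 0.210), where 0.888% of genes passed and 0.472% with a lower level. FA2H on HF stood at -0.011 ± 0.092.

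A difference between formulas in the effect of size needs the interaction itself, and 0 of 9 genes passed for it under surrogate variables (0.049% of genes) or under the litter block (0.276%). With surrogate variables 0 of the 9 genes had an unadjusted p under 0.05, which 4.01% of all genes had, and DESeq2 and voom called 0, and the smallest FDR p was 0.857. With the block, FA2H had the smallest p, with a difference of 0.32 ± 0.13 between HF and CON in the log2 effect of size (edgeR adjusted p = 0.554). The blocked interaction was 0.11 ± 0.13 for CNP, 0.18 ± 0.15 for MBP and 0.20 ± 0.15 for MOBP, and 0.065 ± 0.14 for UGT8.

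Levels also differed between the cohorts. With counts summed per litter and diet and sex as terms, all 9 genes were higher in cohort 2, by a median of 0.42 on the log2 scale against -0.012 for all genes. FA2H passed an FDR p of 0.05 (0.42 ± 0.083, adjusted p = 0.0430), as did 0.447% of all genes, 0.172% with a higher level. Its litter means did not overlap. They lay between 237 and 303 CPM in cohort 1, with a median of 248, and between 304 and 374 in cohort 2, with a median of 362. The share of all genes whose litter means separated in this way is not reported here. The number called was 0 to 3 when 1 litter was left out, and the share of all genes called in those fits is not reported here. FA2H was called in 2 of the 12 fits that left out 1 litter, those without litter 4 (adjusted p = 0.00329) and without litter 8 (0.0268), and its adjusted p reached a highest value of 0.221. CNP and CLDN11 were called in the same 2 fits, and MOG without litter 2 (1.07, adjusted p = 0.0304).

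CNP was next, at 0.50 ± 0.11 (adjusted p = 0.0597), with litter means of 1409 to 1856 CPM (median 1512) in cohort 1 and 1710 to 2612 (median 2341) in cohort 2. CLDN11 stood at 0.42 ± 0.097 (adjusted p = 0.0849), MAG at 0.39 ± 0.11 (adjusted p = 0.177) and UGT8 at 0.25 ± 0.078 (adjusted p = 0.212). For CNP, CLDN11 and UGT8 alike, 5 of 6 litters of cohort 2 lay above all litters of cohort 1. MOG had the largest estimate, 0.86 ± 0.27 (adjusted p = 0.229), and ERMN stood at 0.48 ± 0.19 (adjusted p = 0.352). The 2 most abundant genes had the smallest, MBP at 0.23 ± 0.13 and MOBP at 0.13 ± 0.11. An unadjusted p under 0.05 was reached by 7 of 9 genes, against 11.2% of all genes, or 5.13% with a higher level. DESeq2 on the same litter sums called 5 of 9, where it called 1.39% of all genes, edgeR with no filter on low counts called 6 of 9, where 2.48% of all genes were called, and with SGA or AGA piglets alone 0 were called, with medians of 0.38 and 0.36.

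**Figure D4:**
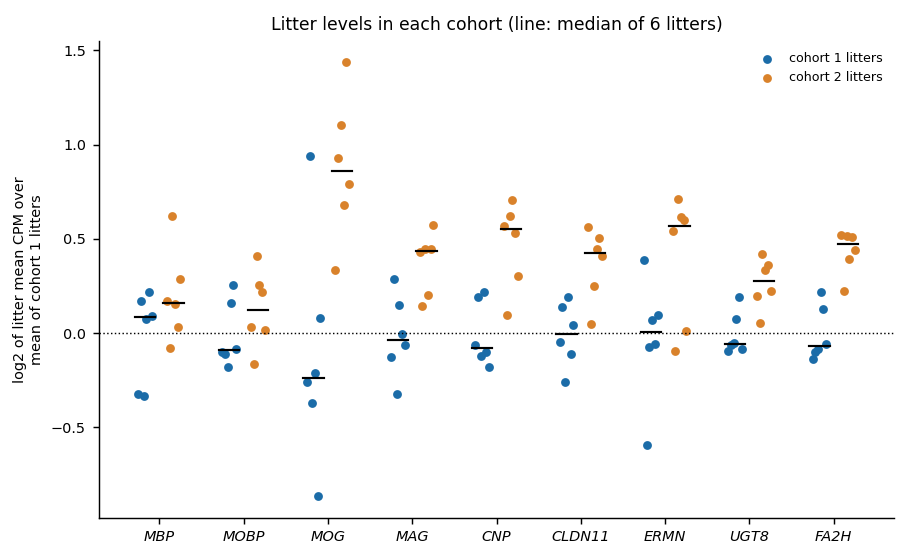
Litter mean CPM of each gene on a log2 scale relative to the mean of the 6 cohort 1 litters, with cohort 1 in blue, cohort 2 in orange and a line at the median of the 6 litters. For FA2H the cohort 2 litters, at 304 to 374 CPM, all sit above the cohort 1 litters, at 237 to 303, while MBP and MOBP overlap. The share of all genes that separated in this way is not reported here.

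Markers of other cells also differed between cohorts. The summed CPM of 8 microglial markers had litter means of 127 to 209 in cohort 1 and 160 to 220 in cohort 2, and CX3CR1, the microglial fractalkine receptor, passed (0.81 ± 0.14, adjusted p = 0.0250). Choroid plexus markers, of which TTR and KL were tested, had litter means of 10.6 to 95.5 CPM in cohort 1 and 6.23 to 16.1 in cohort 2. The 4 Schwann cell markers, which mark the myelinating cells of peripheral nerve, summed to 14.3 to 20.7 and 16.8 to 22.6 CPM. All 4 were higher in cohort 2, with a median of 0.19 on the log2 scale, and 0 were called in edgeR. Of the microglial markers 6 of 8 were higher, with a median of 0.48, and 4 of these had an unadjusted p under 0.05. Astrocyte markers summed to means of 13098 and 12958 CPM, most of it GFAP, at means of 8209 and 8263. By gene, 5 of 8 astrocyte markers were lower in cohort 2, with a median of -0.19, and 3 of these had an unadjusted p under 0.05, as 11.2% of all genes did, and 0 were called in edgeR. Endothelial markers were lower in 5 of 5 (median -0.20) and choroid plexus markers in 2 of 2 (median -0.96), and meningeal markers were higher in 4 of 5 (median 0.32). In these 3 lists 0 genes were called in edgeR, and 1, 1 and 2 genes had an unadjusted p under 0.05. The part of these cells, and of the unequal number of male litters, in the cohort difference was not tested.

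Beyond the 9 genes, 25 other genes of myelin and mature oligodendrocytes were listed, with earlier results of these data known, and 21 were measured. Under the litter block 21 of 21 were lower in SGA, with a median of -0.25, and 10 were called, where 2.57% of all genes were called and 1.52% with a lower level. Among them were OPALIN, an oligodendrocyte membrane protein (-0.43 ± 0.085, adjusted p = 0.0997), MAL, a lipid raft protein of compact myelin (-0.43 ± 0.091), and NKX6-2, a transcription factor of myelinating oligodendrocytes (-0.44 ± 0.11). CD9, TMEM125, PLLP, CRYAB, GJB1 and QDPR were also called. Without litters 4 and 7, 21 of 21 were lower with a median of -0.24 and 0 were called in edgeR, where 0.221% of all genes were. With surrogate variables 20 of 21 were lower with a median of -0.13 and 0 were called, the smallest FDR p being 0.471 for MAL (-0.44 ± 0.13), and 8 had an unadjusted p under 0.05, all of them lower, where 4.95% of all genes reached it with a lower level.

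Of 10 genes of galactolipid synthesis and turnover, 8 were lower in SGA under the block, with a median of -0.090. The block called 1 of them, where 2.57% of all genes were called and 1.52% with a lower level. That gene was CERS2, the ceramide synthase for the very long acyl chains found in myelin (-0.32 ± 0.066, adjusted p = 0.120). Of 11 measured genes of newly formed oligodendrocytes and their progenitors, 8 were lower, with a median of -0.11, and 2 were called, ENPP6, a marker of newly formed oligodendrocytes (-0.38 ± 0.10), and OLIG1, a lineage transcription factor (-0.17 ± 0.049). Without litters 4 and 7, 8 of 10 and 7 of 11 were lower, with medians of -0.065 and -0.047. In that fit 0 of either list were called in edgeR, where 0.221% of all genes were. Neither list had a gene called for size with surrogate variables, where 0.478% of all genes were. For cohort, 3 of the 21 other myelin genes, 0 of the 10 galactolipid genes and 1 of the 11 progenitor genes were called. Over all genes 0.447% were called, 0.172% with a higher level. Genes called in these 3 lists included CD9 (0.54 ± 0.091), GJB1 (0.51 ± 0.097) and the lineage factor OLIG2 (0.41 ± 0.082), all higher in cohort 2. For diet 0 genes of the 3 lists were called in edgeR, where 0.159% of all genes were.

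The 9 genes varied together over piglets, MOG the least. In the 36 pairs of genes, Pearson's r of log2 CPM over the 24 piglets was above 0 in all 36 and above 0.5 in 30, with a median of 0.66 and a range from 0.18 to 0.89. The median over pairs drawn from all tested genes was -0.0028. After the means of group and cohort were taken out the median was 0.37, and 29 of 36 were above 0. The pairs below 0 were all pairs of MOG, whose r then ran from -0.30 with UGT8 to 0.072 with MAG. MOG thus did not vary with most of the other genes within group and cohort. UGT8 had the highest median r with the other genes, 0.76, and MOG, the gene with the second lowest counts, the lowest, 0.34. A single component held 68.1% of the variance of the 9 genes. Piglets of a litter and of a cohort share a source, and all values share the library scaling, so these correlations are given as a description.

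The genes most like the 9, by Pearson's r with their mean standardized log2 CPM over 24 piglets, were picked from the 12353 tested genes with a symbol. Among the 10 highest were ENPP2 (autotaxin, 0.95), CERS2 (0.93), ZDHHC9 (a palmitoyltransferase, 0.92) and PRR18 (0.91). They were followed by MCAM, ABL1, RTKN, SLC45A3 and ELOVL7, a fatty acid elongase, between 0.91 and 0.88. Among the 10 lowest were GABRA4, a GABA receptor subunit (-0.72), AP4S1 (-0.71) and EPM2AIP1 (-0.70), followed by CHL1, TMEM182, MAPK4, CADM1, FAM19A2 and WFDC1 between -0.69 and -0.66. The median over all genes was -0.021. With group and cohort means taken out the 10 highest kept r between 0.52 and 0.90, and the 10 lowest between -0.57 and -0.19.

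The last comparison set the myelin genes against neuronal transcripts of the same piglets, of which 18 of 20 listed were measured. In SGA piglets the summed neuronal CPM had a median of 24158 (22479 to 29661) and in AGA piglets 24321 (14205 to 26822). The mean of the neuronal transcripts was higher in the SGA littermate in 9 of 12 litters. Under the litter block 17 of 18 were higher in SGA, with a median of 0.14, and 0 were called (edgeR), the smallest FDR p being 0.469 for NEFM, a neurofilament subunit. Without litters 4 and 7, 12 of 18 were higher, with a median of 0.057, and 0 were called. With surrogate variables 13 of 18 were higher in SGA and 5 lower, with a median of 0.056. CAMK2A, a synaptic kinase (0.13 ± 0.030, adjusted p = 0.308), and SYN1, a synaptic vesicle protein (0.16 ± 0.041, adjusted p = 0.395), were called higher in that fit, where 0.478% of all genes were called. The 5 surrogate variables held 94.2% of the variance of the mean of the neuronal transcripts over piglets. Of 6 listed markers of hippocampal excitatory neurons 4 were tested, since NEUROD6 had no match and ZBTB20 failed the filter on low counts. Of these 4, 3 were higher in SGA under the block, with a median of 0.20. BCL11B, a transcription factor of these neurons, was called (0.22 ± 0.067, adjusted p = 0.374), where 2.57% of all genes were. With litters 4 and 7 left out, 3 of 4 were higher, with a median of 0.15, and 0 were called in edgeR.

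Over the 24 piglets, the log2 summed myelin and log2 summed neuronal CPM had a Pearson's r of -0.31 and a Spearman's rho of -0.073. Within cohorts r was -0.46 in cohort 1 and -0.41 in cohort 2 (n = 12 each), over the 12 litter means 0.025, and over the 12 differences between littermates -0.56. Without the 2 AGA piglets with the least neuronal RNA, r over the other 22 was -0.055, and without their litters r over 10 littermate differences was -0.38. Scaled with the myelin genes left out of the library size, r over 24 piglets was -0.29. The value over 24 piglets thus moved close to 0 without those 2 piglets. With the mean log2 CPM of each list in place of the log2 sum, r was -0.27 over 24 piglets, -0.12 without those 2, -0.54 over 12 littermate differences and -0.75 over the 10 without their litters. In 8 of the 9 genes, MOG being the exception, r with the mean neuronal log2 CPM was negative, between -0.43 for MOBP and -0.27 for MAG.

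**Figure D5:**
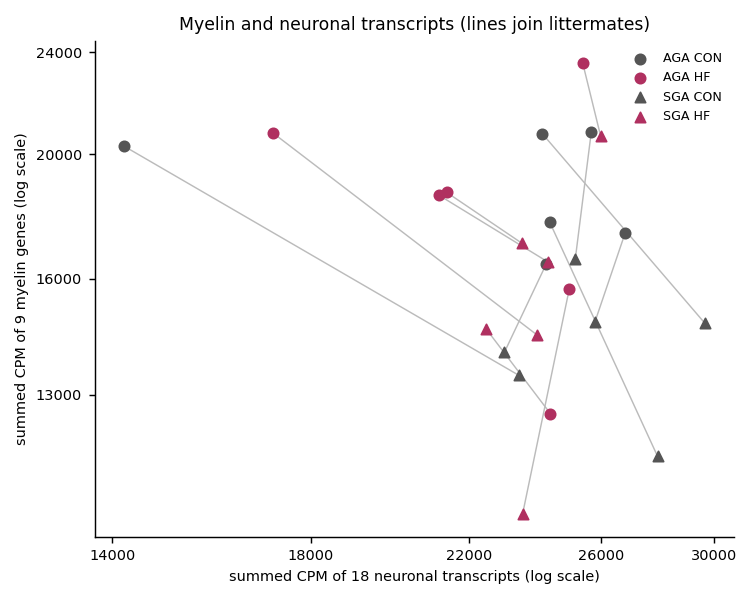
Summed CPM of the 9 myelin genes against summed CPM of 18 neuronal transcripts in 24 piglets, both axes on a log scale, with symbols for the 4 groups and lines joining littermates. The 2 AGA piglets at the left, at 14205 and 17168 CPM of neuronal transcripts, lie apart from the other 22, which are at 21190 or more.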

How the data were processed

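Hippocampal RNA of 24 piglets was prepared as stranded polyA libraries. Per the labels and the methods of the study, the authors trimmed reads with Trimmomatic 0.33, aligned them to Sscrofa10.2 with STAR 2.5.2a and counted them with featureCounts (Subread 1.5.0) on exons, using the strand and grouping by Entrez gene. They deposited whole-number counts per gene, neither filtered nor normalized. Alignments to several places are not counted at that program's default setting, and 1 entry without an identifier, which held 0.613% to 1.62% of a library, was left out of library sizes and tests. Symbols came from a Sscrofa11.1 table matched on the Entrez identifier (23036 of 38882 genes matched). Chromosome numbers were set by the majority of genes on each sequence. The members and gene lists were chosen with earlier results of these data known.

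The software was edgeR 4.0.16 with sva 3.50.0 for the main model, DESeq2 1.42.0 and limma 3.58.1 as alternatives, under R 4.3.3. A gene was kept if 3 or more libraries reached 1 CPM (16326 genes), and TMM factors were then recomputed. Group, sex and 5 surrogate variables were fitted with the quasi-likelihood test, with a Benjamini-Hochberg FDR over 7 contrasts together. An FDR p under 0.4, which the study used to display differentially expressed genes, was the call. The study fitted limma voom, which was run as an alternative. The litter block fitted 12 litters and the effect of size within each formula, with the FDR over its 4 contrasts (size, interaction, and size on CON and on HF), and leaves diet untestable, since each litter had 1 formula. Litters come from the pair labels, and littermates, each as a deviation from the mean of its group, correlated at 0.0144 to 0.329 over genes (mean 0.154), above 0.1 in 9 of 12. The cohort comparison used counts summed per litter, with an FDR of its own and a threshold of 0.05. Log2 CPM used a prior count of 2. Members and, of each list, the genes called or the 4 with the smallest p were named, with the 10 genes of highest and of lowest likeness. Some genes that met these rules are not reported here. The fits were tested on simulated data.

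A level of 3 counts corresponded to 0.320 to 0.494 CPM. Reads carried no molecular identifiers, so such floors cover counting error only. Whether different litters shared a sow is not given in the sources used here.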

Additional observations from a re-analysis of the deposited data

Results flagged for a closer look

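Within each group of 6 piglets, the highest or lowest value of a gene was compared with its nearest neighbour by Dixon's ratio. Of 40 sets of 6 values tested, which included more than the myelin genes in each group, 2 exceeded the 95% critical value for 6 samples. Chance alone gives that in about 1 of 20 sets. MBP in AGA CON replicate 6 stood at 8944 CPM, while the other 5 AGA CON piglets lay between 7158 and 7408. CNP in SGA CON replicate 5 stood at 2434 CPM, while the other 5 SGA CON piglets lay between 1311 and 1533. Both piglets belong to cohort 2. The littermate of the second, in litter 10, also had a high CNP level, and the difference within that litter was -0.20 on the log2 scale.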

How the results depend on the processing

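With a real pairing by litter, the model with the replicate block called 4 of the 9 genes for size, 5 on CON and 1 on HF, against 0 in each as reported, and 0 for the interaction in both. That model also left out the surrogate variables and took its FDR over 4 contrasts, so these differences cannot be assigned to the block alone. The block called 1 within cohort 2 alone and 1 without litters 4 and 7 (an alternative chosen after seeing the data, as were the blocks within cohorts and with 1 litter left out). Without the block, size called 2 with the FDR over its contrast alone, 2 with cohort and sex in place of surrogate variables (CNP at -0.42, UGT8 at -0.33) and 1 without litters 4 and 7 (UGT8). Over all genes, 78 were called for size as reported, 420 with the block, 210 by DESeq2, 1200 with the FDR over the contrast alone, 124 with no filter, 43 with 1 CPM required in 6 libraries, 13 with sex alone, 106 with cohort and sex and 46 without litters 4 and 7. For cohort, 5 were called by DESeq2 (227 of all genes), 6 with no filter on low counts (680 of 27413 genes), and 0 in SGA or AGA piglets alone.

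With 1 litter left out, size called 0 to 3 (3 without litter 4 or 5), or 3 to 6 with the block. Diet called 0 to 1 (MBP without litter 8) and cohort 0 to 3. The share of all genes called in these fits is not reported here. The median log2 fold change of the 9 genes stayed between -0.27 and -0.16 for size (-0.37 to -0.29 with the block), between -0.10 and 0.045 for diet and between 0.35 and 0.53 for cohort. The sign for size held for all 9 genes under every setting except MOG in cohort 1 with the block, at 0.061. Signs for diet did not hold. Without 1 litter the estimates ran from -0.40 to 0.12 for MOG, -0.10 to 0.079 for MOBP, -0.10 to 0.099 for CNP, -0.13 to 0.015 for CLDN11, -0.062 to 0.072 for UGT8 and -0.039 to 0.090 for FA2H. They turned under sex alone (MOBP 0.11, CNP 0.036, UGT8 0.088), under cohort and sex (MOBP 0.11, CNP 0.011, UGT8 0.086), under litter sums (MOBP 0.080, UGT8 0.058), with no filter (FA2H -0.00074) and without litters 4 and 7 (MOG 0.23, MAG 0.025, MOBP 0.20, CNP 0.16, CLDN11 0.080, UGT8 0.15). None of these diet estimates was called, and the causes were not tested. With 6 litters a cohort, calls within a cohort rest on few litters, and MOG had 14 to 149 counts and ERMN 5 to 39 in a library.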
